A study of Mus musculus with 12 samples.

Results

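Mesangial cells, pericytes, vascular smooth muscle cells and myofibroblasts are the contractile support cells of the kidney, and 10 genes by which they are commonly recognised were followed here in the kidneys of sick knock-in, healthy knock-in and wild-type mice. The genes were Pdgfrb, Pdgfra, Rgs5, Cspg4, Notch3, Itga8, Des, Acta2, Tagln and Myh11. They were taken by symbol from a table of 39171 genes, each had 1 row, and all 10 were among the 15589 genes with enough counts to be tested. Each of the 12 libraries was made from the kidney RNA of 1 male mouse, and no mouse was older than 3 months. Sick and healthy knock-in mice (4 of each) were homozygous for the M743T substitution in GNE, the enzyme that starts sialic acid synthesis, and differed in phenotype, which the labels class as Sick or healthy. The other 4 mice were wild-type and were also classed as healthy. Both knock-in groups carry the same homozygous substitution, so genotype does not separate sick from healthy knock-in mice, and the labels name no transgene, Cre or drug.

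Mural cells wrap capillaries and arterioles and are held there by platelet-derived growth factor, which endothelial cells release and the receptor encoded by Pdgfrb binds. In the glomerulus the same receptor is carried by mesangial cells, which hold the capillary loops together. When the kidney is injured, pericytes and resident fibroblasts can become myofibroblasts, cells that make a smooth muscle type of actin and lay down collagen. In whole-kidney RNA fewer cells of a type and less RNA per cell cannot be told apart, and the same holds for more cells and more RNA per cell.

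Library totals ran from 10605546 to 22633684 counts for the sick mice, from 18191087 to 21925419 for the healthy knock-in mice and from 13189478 to 19493856 for the wild-type mice. The unit of level is CPM, the count per effective library size, in which the total is multiplied by a TMM scaling factor. These factors were 1.23 to 1.39 in sick, 0.804 to 0.933 in healthy knock-in and 0.839 to 0.901 in wild-type mice. Scaling by totals without TMM gave a median log2 fold change over all tested genes of 0.61 in sick against wild-type mice, where TMM gave 0.019. Of all tested genes 54% then rose and 10.3% fell. On the first principal component, which held 60.9% of the variance, sick mice lay between -116 and -74.1 and all other mice between 32.3 and 61.8. Wild-type mouse 2 stood apart on the next component, at -84.7, and sick mouse 3 lay at -38.9. All 10 proximal tubule and all 8 podocyte marker genes examined had counts in every library.

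In sick against wild-type mice 9 of the 10 genes rose and 0 fell, by edgeR's quasi-likelihood test at an adjusted p of 0.05, where 25.9% of all genes tested rose and 25.0% fell. The 4 sick mice lay above all 4 wild-type mice in 9 genes, against 22.7% of all genes. The median log2 fold change of the 10 genes was 1.87, with a range of 0.66 to 2.63, beside the median of 0.019 over all genes tested. Tagln and Acta2, which encode actin-binding and actin proteins of smooth muscle, were 6.20-fold and 6.07-fold higher. Itga8, an integrin gene of mesangial and smooth muscle cells, was the 1 gene that did not pass the test. Without TMM all 10 genes rose, with a median of 2.47 that lay 1.85 above the median of all genes. Together the 10 genes took 0.125% to 0.243% of all counts in sick mice, 0.0324% to 0.0596% in the healthy knock-in group and 0.0310% to 0.0355% in wild-type mice.

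**Figure D1:**
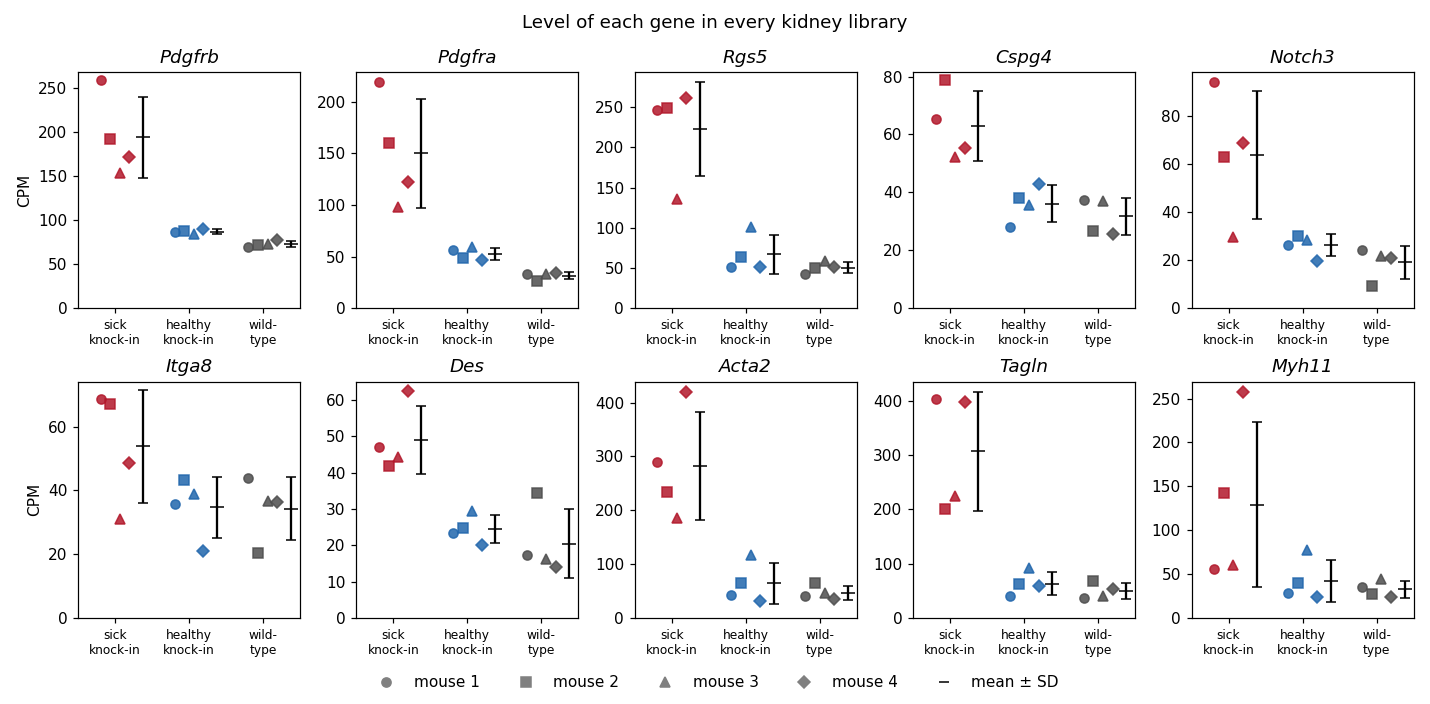
Level of each of the 10 genes in every library, in CPM on a linear axis that starts at 0, with sick knock-in mice on the left, healthy knock-in mice in the middle and wild-type mice on the right. Each marker is 1 mouse and the bar beside it is the mean ± SD over 4 mice; the sick mice lie above all wild-type mice for every gene but Itga8.

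The 2 receptors of platelet-derived growth factor were measured first. Pdgfrb (ENSMUSG00000024620) lies on chromosome 18 from 61045150 to 61085061 on the plus strand of GRCm38 and encodes the receptor that marks pericytes and mesangial cells. Its level was 259, 192, 154 and 172 CPM in sick mice, 86.6, 87.5, 84.0 and 89.8 CPM in healthy knock-in mice, and 69.7, 71.6, 72.5 and 76.9 CPM in wild-type mice. The 3 groups did not overlap, and the healthy knock-in and wild-type mice each kept within a narrow band. The means were 194 ± 45.9 CPM in sick, 87.0 ± 2.41 CPM in the healthy knock-in group and 72.7 ± 3.02 CPM in wild-type mice (SD, n = 4 each). Pdgfrb rose in sick against wild-type mice with a log2 fold change of 1.42 ± 0.15 (SE; edgeR adjusted p = 1.15e-05), or 2.67-fold.

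Pdgfra (chromosome 5, 75152292 to 75198215, plus strand) encodes the receptor found on interstitial fibroblasts. It stood at 219, 160.3, 98.5 and 123 CPM in sick mice, against 33.3, 26.1, 32.9 and 34.3 CPM in wild-type mice. Healthy knock-in mice lay between them without overlap, at 56.6, 48.3, 58.9 and 46.3 CPM. The rise in sick against wild-type mice was 4.75-fold, a log2 fold change of 2.25 ± 0.22 with an edgeR adjusted p of 8.02e-06, which was the smallest adjusted p of the 10 genes. For both receptors sick mouse 1 was the highest and sick mouse 3 the lowest of its group.

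Rgs5 and Cspg4 are pericyte genes. Rgs5 (chromosome 1, 169655501 to 169695813, plus strand) encodes a regulator that shortens signalling through G protein-coupled receptors. It was 247, 249, 136 and 261 CPM in sick mice, 51.2, 63.9, 101 and 50.9 CPM in healthy knock-in mice, and 42.2, 49.9, 58.7 and 50.9 CPM in wild-type mice. Sick mouse 3 was far below the other sick mice and still above every mouse of the other groups. The log2 fold change of Rgs5 in sick against wild-type mice was 2.15 ± 0.26 (edgeR adjusted p = 2.8e-05), or 4.43-fold. Cspg4 (chromosome 9, 56865033 to 56899870, plus strand) encodes the proteoglycan NG2 of the pericyte surface. Sick mice had 65.4, 78.9, 52.3 and 55.2 CPM of Cspg4, against 37.3, 26.6, 37.2 and 25.8 CPM in wild-type mice. This rise of 1.99-fold was the smallest of the 9 that passed the test (log2 fold change 0.99 ± 0.19, edgeR adjusted p = 0.000737).

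Notch3 (chromosome 17, 32120820 to 32166852, minus strand) encodes the Notch receptor of pericytes and arterial smooth muscle. Its levels were 94.2, 63.0, 29.5 and 68.7 CPM in sick mice and 24.4, 9.25, 21.8 and 20.8 CPM in wild-type mice. The groups did not overlap, but sick mouse 3 lay inside the range of the healthy knock-in mice, which were at 26.4, 30.2, 28.3 and 19.6 CPM. Notch3 rose 3.36-fold in sick against wild-type mice, a log2 fold change of 1.75 ± 0.34 (edgeR adjusted p = 0.000984).

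Itga8 and Des mark mesangial cells in rodents. Itga8 (chromosome 2, 12106632 to 12301922, minus strand) encodes the integrin alpha 8 chain, which pairs with beta 1 and binds nephronectin. It was 68.8, 67.0, 31.0 and 48.7 CPM in sick mice, 35.8, 43.1, 38.8 and 20.9 CPM in healthy knock-in mice, and 43.8, 20.4, 36.6 and 36.3 CPM in wild-type mice. The groups overlapped here: sick mouse 3 lay below 3 of the 4 wild-type mice and the other 3 sick mice lay above all of them. The log2 fold change in sick against wild-type mice was 0.66 ± 0.29, which did not pass the test (edgeR adjusted p = 0.0796). Without sick mouse 3 it was 0.84 with an adjusted p of 0.0219, and without TMM it was 1.26, at an adjusted p of 0.00453.

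Des (chromosome 1, 75360329 to 75368579, plus strand) encodes desmin, an intermediate filament of muscle, mesangial cells and, after injury, podocytes. Sick mice had 47.1, 41.8, 44.2 and 62.5 CPM, against 17.2, 34.4, 16.1 and 13.9 CPM in wild-type mice. All sick mice were above all wild-type mice, although wild-type mouse 2 stood well above the other 3. Des rose 2.39-fold in sick against wild-type mice, at 1.26 ± 0.26 on the log2 scale (edgeR adjusted p = 0.00145). Without wild-type mouse 2 the log2 fold change was 1.62.

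The contractile genes Acta2, Tagln and Myh11 are used to recognise smooth muscle and, for Acta2 and Tagln, myofibroblasts. Acta2 (chromosome 19, 34241090 to 34255590, minus strand) encodes smooth muscle alpha-actin. Its level was 289.9, 234, 186 and 419 CPM in sick mice, 43.0, 64.7, 117 and 30.9 CPM in healthy knock-in mice, and 41.3, 64.0, 45.7 and 34.9 CPM in wild-type mice. The lowest sick mouse was above the highest of the other mice, and healthy knock-in mouse 3 stood above the rest of its group. The rise in sick against wild-type mice was 2.60 ± 0.39 on the log2 scale (edgeR adjusted p = 0.000156).

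The start of Acta2 is known for CArG boxes, short A and T rich motifs to which serum response factor (SRF) binds in smooth muscle genes. The 250 bases before the RefSeq start of Acta2 are printed because SRF partner genes and the contractile genes are described together below. They lie at chr19:34255374-34255623 of GRCm38.p6 and are given on the minus strand, 5′ to 3′, with capitals for the CArG boxes found when 1 mismatch was allowed.
Acta2: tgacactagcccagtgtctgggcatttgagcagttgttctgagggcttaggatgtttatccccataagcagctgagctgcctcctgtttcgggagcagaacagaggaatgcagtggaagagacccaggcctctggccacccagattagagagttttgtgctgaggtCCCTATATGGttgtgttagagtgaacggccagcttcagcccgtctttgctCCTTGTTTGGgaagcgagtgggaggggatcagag
The boxes start 84 and 34 bases before the RefSeq start, which lies inside the span given above for Acta2, since the GENCODE annotation starts the gene farther upstream, at 34255590. Most of the printed window therefore falls within the GENCODE gene. Of the 10 genes, 7 had a promoter sequence in the RefSeq table, whereas Pdgfrb, Tagln and Myh11 had none and were not searched. On both strands of the same window 0 of the 7 held a CArG box without mismatch, against 1.40% of 27025 mouse promoters. With 1 mismatch allowed, a setting chosen after the exact search had found 0, Acta2 was the 1 gene of 7 with a match, against 8.65% of promoters. The motif TGGGAA, the core bound by the Notch partner RBPJ, was also found in 1 of the 7, again Acta2, 27 bases before its RefSeq start and overlapping the second box, against 21.5% of promoters. These are matches of letters and were not tested for binding.

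Tagln (chromosome 9, 45929619 to 45936058, minus strand) encodes transgelin, an actin-bundling protein of smooth muscle. It was 404, 199.8, 223 and 398 CPM in sick mice, 40.3, 62.2, 91.1 and 58.9 CPM in healthy knock-in mice, and 36.6, 68.3, 40.0 and 52.5 CPM in wild-type mice. No sick mouse overlapped any other mouse, and the log2 fold change against wild-type mice was 2.63 ± 0.31 (edgeR adjusted p = 2.86e-05). On the opposite strand, the annotated antisense gene Gm48529 covers 62.4% of the exon bases of Tagln and Pcsk7 a further 5.43%. No source used here says whether the counting used strand, so reads of these genes cannot be told apart from those of Tagln. The counts of Pcsk7 itself were 479 to 1052 in sick, 597 to 931 in healthy knock-in and 548 to 742 in wild-type mice. Of the other 9 genes, Itga8, Notch3, Des and Pdgfra have antisense genes over 4.55% to 6.03% of their exon bases.

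Myh11 (chromosome 16, 14194535 to 14291372, minus strand) encodes the myosin heavy chain of smooth muscle and is the most restricted smooth muscle gene of the 10. Sick mice had 56.0, 143, 60.6 and 258 CPM of Myh11, healthy knock-in mice 28.7, 39.6, 77.1 and 23.4 CPM, and wild-type mice 35.5, 27.1, 44.8 and 23.4 CPM. Sick mice 2 and 4 were high, while sick mice 1 and 3 lay between 56.0 and 60.6 CPM and below healthy knock-in mouse 3. The log2 fold change in sick against wild-type mice was 1.98 ± 0.50 (edgeR adjusted p = 0.00509), the widest error of the 10 genes. Without sick mouse 4 it was 1.40 (adjusted p = 0.0187).

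Within their groups, sick mouse 4 and healthy knock-in mouse 3 also had the most urothelial marker RNA. The summed level of 8 urothelial marker genes was 40.2, 74.0, 79.9 and 275 CPM in sick mice, 3.37, 8.77, 83.8 and 3.63 CPM in healthy knock-in mice, and 2.60 to 7.60 CPM in wild-type mice, with no marker at 0 in a whole group. All 8 rose in sick against wild-type mice, with Psca by 5.69, Upk1b by 5.22 and Upk1a by 4.30 on the log2 scale. Sick mouse 4 and healthy knock-in mouse 3, the highest of their groups, were also the mice with the most Myh11 and Acta2. Adipose markers were highest in the same sick mouse, with sums of 66.7 to 2433 CPM in sick, 62.1 to 152 CPM in the healthy knock-in group and 121 to 202 CPM in wild-type mice. Of 7 tested 6 rose, Cfd by 4.38 and Fabp4 by 1.72 on the log2 scale, and Car3 had a value of 1.80 (edgeR adjusted p = 0.094). With both mice left out, 9 genes rose in sick against wild-type mice and 9 against healthy knock-in mice. The share of all genes that rose in that fit was not recorded. The log2 fold changes against wild-type were then 2.35 for Acta2, 2.48 for Tagln and 1.40 for Myh11, and 2.06 for Rgs5 and 2.33 for Pdgfra. The part of urothelial and adipose RNA in the other values was not tested.

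Against healthy knock-in mice, which carry the same substitution, the sick mice also showed 9 genes that rose and 0 that fell, where 24.5% of all genes rose and 21.9% fell. The median log2 fold change of the 10 genes was 1.40, beside 0.048 over all genes. In 7 genes all sick mice lay above all healthy knock-in mice, against 24.0% of all genes. Without TMM all 10 rose, with a median 1.37 above that of all genes, and 55% of all genes rose while 9.14% fell. Tagln rose 4.85-fold (log2 fold change 2.28 ± 0.31, edgeR adjusted p = 9.12e-05) and Acta2 rose 4.41-fold (2.14 ± 0.38, adjusted p = 0.000662). The receptors rose by smaller steps, Pdgfra 2.86-fold and Pdgfrb 2.23-fold, with edgeR adjusted p values of 0.000117 and 5.4e-05. Itga8 again did not pass, at 0.64 ± 0.29 on the log2 scale (edgeR adjusted p = 0.0915), against 0.82 without sick mouse 3 (adjusted p = 0.0266). Myh11 passed at an adjusted p of 0.0166, but not without sick mouse 4 (log2 fold change 1.04, adjusted p = 0.0708) or without healthy knock-in mouse 1 (1.46, adjusted p = 0.051). The 2 comparisons share the sick mice, so they are not independent of each other.

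**Figure D2:**
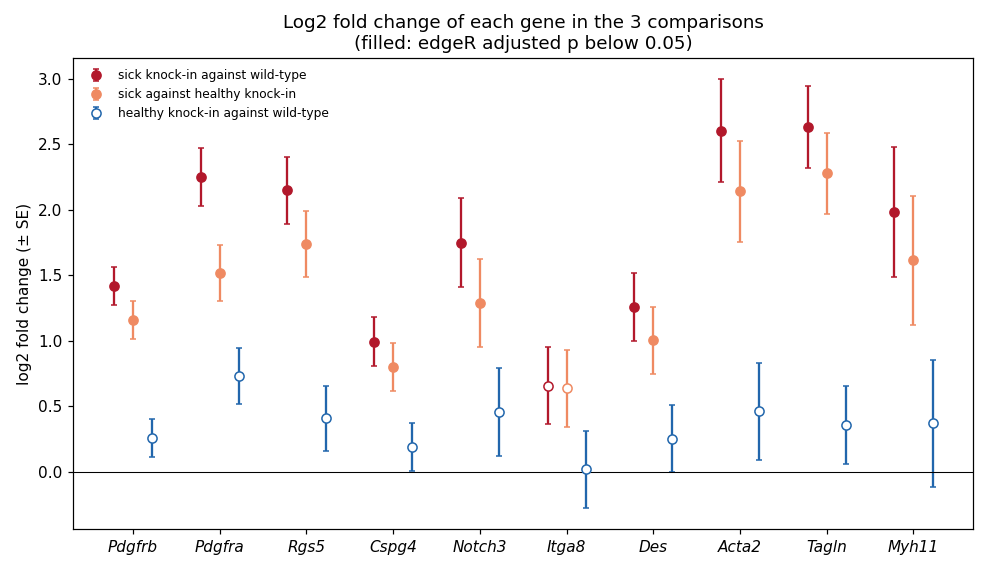
Log2 fold change ± SE of each gene for sick against wild-type, sick against healthy knock-in and healthy knock-in against wild-type mice (4 mice per group); filled symbols passed an edgeR adjusted p of 0.05. Against wild-type mice the sick values run from 0.66 for Itga8 to 2.63 for Tagln, while the healthy knock-in values run from 0.02 to 0.73 and 0 of 10 passed.

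Between healthy knock-in and wild-type mice 0 of the 10 genes passed the test in either direction, where 0.308% of all genes rose and 0.00641% fell. All 10 log2 fold changes were above 0 in the main edgeR fit, with a median of 0.36 beside -0.0086 over all genes. Without TMM they ran from 0.041 for Itga8 to 0.74 for Pdgfra. By limma-voom, also with TMM, Itga8 and Cspg4 lay below 0. In the main edgeR fit 1 gene had an unadjusted p under 0.05. That gene was Pdgfra, at 52.5 ± 6.14 CPM in the healthy knock-in group and 31.6 ± 3.77 CPM in wild-type mice (log2 fold change 0.73 ± 0.21, unadjusted p = 0.00448, edgeR adjusted p = 0.603). Pdgfra and Pdgfrb were the 2 genes in which all healthy knock-in mice lay above all wild-type mice, against 2.17% of all genes. By limma-voom with quality weights Pdgfra passed at 0.69 with an adjusted p of 0.0499, and by DESeq2 0 genes passed. For Acta2, Myh11 and Itga8 the sign depended on single mice: without healthy knock-in mouse 3 the log2 fold changes were -0.0095, -0.097 and -0.041.

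Skeletal muscle RNA differed between these groups as well. All 14 skeletal muscle markers rose in healthy knock-in against wild-type mice. Their summed level was 285 to 463 CPM in healthy knock-in mice, 1.95 to 19.6 CPM in sick mice and 1.62 to 3.83 CPM in wild-type mice. Acta1, the actin of skeletal muscle, averaged 75.8 ± 17.2 CPM in healthy knock-in mice and 0.149 ± 0.208 CPM in wild-type mice, and Atp2a1 and Myh4 rose by 7.95 and 8.27 on the log2 scale. Of 3 cardiac muscle markers tested, Actc1 rose by 7.69 and Ryr2 and Tnnt2 had values of -0.14 and 0.39. Desmin is also made by skeletal muscle, and Des was 23.4, 24.7, 29.4 and 20.2 CPM in healthy knock-in mice. These values lay inside the range of the wild-type mice only because wild-type mouse 2 had 34.4 CPM. The other wild-type mice had 13.9 to 17.2 CPM, below every healthy knock-in mouse. Without wild-type mouse 2 the log2 fold change of Des was 0.63, against 0.25 with all mice. In no fit without 1 mouse did Des pass this comparison (lowest edgeR adjusted p = 0.452). The part of skeletal muscle RNA in the values of Des was not tested.

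Adjusted for gene length, Tagln and Acta2 had the highest means of the 10 genes in every group. In CPM per kilobase of merged exons, Tagln had 154 ± 55.2 in sick, 31.8 ± 10.6 in healthy knock-in and 24.8 ± 7.24 in wild-type mice. Acta2 followed with 129 ± 45.9 in sick, 29.2 ± 17.4 in healthy knock-in and 21.2 ± 5.69 in wild-type mice, and its range overlapped that of Tagln in each group. In healthy knock-in mice the range of Acta2, 14.1 to 53.5, also overlapped those of Pdgfrb (15.3 to 16.4) and Rgs5 (11.2 to 22.3), so its place there is not settled. Rgs5 came next in sick mice at 49.1 ± 12.9 CPM per kilobase, ahead of Pdgfrb at 35.4 ± 8.38, whereas in wild-type mice Pdgfrb at 13.3 ± 0.551 preceded Rgs5 at 11.1 ± 1.49. The ranges of those 2 genes overlapped in every group, so their order is not settled by 4 mice. In sick mice the ranges of Acta2 and Rgs5 were the only pair of neighbours that did not overlap. At the low end stood Cspg4 in sick mice (5.28 ± 1.01) and Notch3 in wild-type mice (2.36 ± 0.832), both overlapping the genes next to them.

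To compare the genes with each other without any scaling between libraries, the counts of each gene were divided by those of Pdgfrb in the same library, a measure added after the data were seen. The mean log2 ratio was higher in sick than in wild-type mice by 1.21 for Tagln, 1.18 for Acta2, 0.80 for Pdgfra and 0.72 for Rgs5, and for these 4 genes every sick mouse lay above every wild-type mouse. For Acta2 the ratio ran from 0.16 to 1.29 on the log2 scale in sick mice and from -1.14 to -0.16 in wild-type mice. Each of the 4 differences had a two-sided exact permutation p of 0.0286, the smallest that 70 splits of 4 against 4 allow, and an adjusted p of 0.154 over the 27 ratios compared. None passes that correction, but a ratio could pass it only if most of the 27 reached the smallest p. The adjusted p therefore cannot decide whether these 4 ratios differ. The difference was -0.75 for Itga8 (exact p = 0.0571) and -0.40 for Cspg4 (exact p = 0.171), and between -0.05 and 0.35 for Des, Notch3 and Myh11. The ratio of Pdgfra to Pdgfrb was also 0.47 higher in healthy knock-in than in wild-type mice, with the same smallest exact p of 0.0286. In sick against healthy knock-in mice 0 of 9 ratios reached it.

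**Figure D3:**
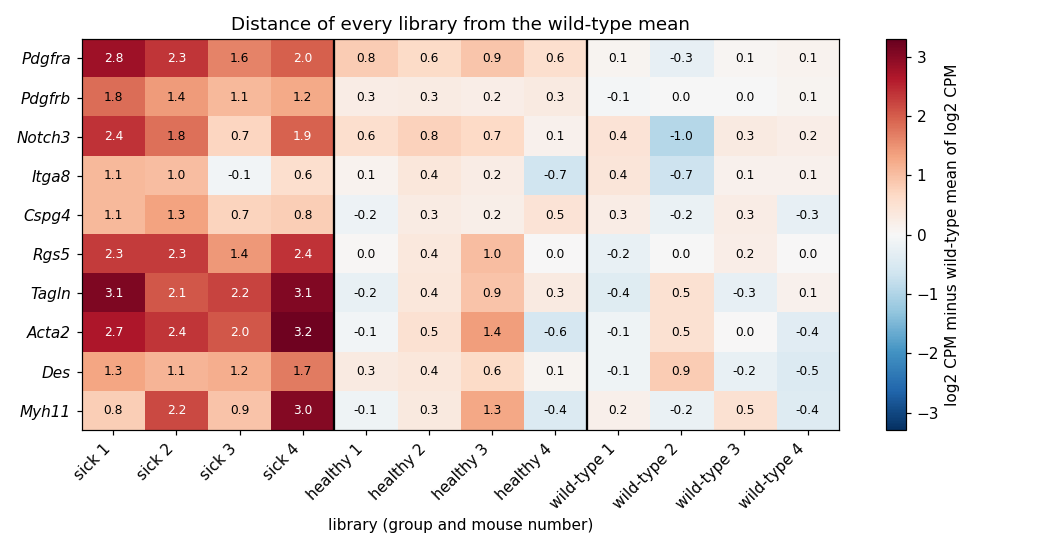
Log2 CPM of each gene in every library minus the mean of the 4 wild-type libraries, with sick mice on the left, then healthy knock-in and wild-type mice. Sick mouse 3 has the lowest median of the sick mice (1.15, against 1.94 to 2.07), and within the sick group Pdgfra, Pdgfrb, Notch3, Itga8 and Tagln are highest in mouse 1 and Acta2, Des, Myh11 and Rgs5 in mouse 4.

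Within groups the genes fell into pairs that varied together and pairs that did not. After each group's mean was removed, the correlation of log2 CPM over the 12 libraries was 0.91 for Itga8 with Notch3, 0.84 for Pdgfrb with Pdgfra and 0.80 for Pdgfra with Notch3. For Acta2 it was 0.79 with Rgs5, 0.72 with Des and 0.70 with both Myh11 and Tagln, while Tagln with Myh11 gave 0.21. It was -0.36 for Des with Notch3, -0.35 for Pdgfrb with Myh11 and -0.34 for Des with Cspg4. Both genes of a pair are measured in the same library, with its depth and scaling factor, and the values are given as a description of 12 libraries. From its group's mean, wild-type mouse 2 lay at -0.69 for Itga8, -0.95 for Notch3 and 0.85 for Des on the log2 scale. How far single mice set these correlations was not tested. Among the sick mice, mouse 1 had the most Pdgfrb, Pdgfra, Notch3, Itga8 and Tagln and the least Myh11, and mouse 4 had the most Acta2, Des, Myh11 and Rgs5. Sick mouse 3, with the fewest counts (10605546), was the lowest of its group for Pdgfrb, Pdgfra, Rgs5, Notch3, Itga8, Acta2 and Cspg4, and had the highest summed level of proximal tubule markers, 6871 CPM against 3035 to 4283 CPM in the other sick mice.

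Over all 12 libraries the genes most like Pdgfrb in log2 CPM were Pros1, Actn1 and Spns2, with Pearson correlations of 0.988 to 0.989. For Pdgfra they were Fam115c, St6gal1 and Samd4 (0.980 to 0.981), for Rgs5 Adora1, Vwf and Boc (0.979 to 0.981), and for Acta2 Mfap4, Fbln1 and Kcnt2 (0.975 to 0.977). Des was closest to Fxyd1, at 0.985, followed by Gsdmd and Olfm1. The nearest gene of Itga8 was E030013I19Rik at 0.968, the antisense gene over 5.05% of its exon bases, with 17 to 88 counts in sick, 14 to 36 in healthy knock-in and 14 to 26 in wild-type mice, followed by Ago1 and Ttc28. These correlations include the difference between sick and other mice and are given as a description of 12 libraries.

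The growth factors that bind the 2 receptors also rose in sick mice, with 1 exception. Pdgfb, the endothelial ligand of Pdgfrb, averaged 54.9 ± 19.4 CPM in sick mice, against 29.0 ± 2.08 CPM in wild-type mice (log2 fold change 0.92 ± 0.21, edgeR adjusted p = 0.00324). Pdgfa, a ligand of Pdgfra, averaged 28.9 ± 0.932 CPM in sick mice, against 14.3 ± 3.85 CPM in wild-type mice (1.01 ± 0.17, adjusted p = 0.000401). Pdgfd rose by 0.68 ± 0.15 and the receptor-like gene Pdgfrl by 3.59 ± 0.52 on the log2 scale. Pdgfc, a second ligand of Pdgfra, averaged 22.6 ± 3.14 CPM in sick mice, against 22.3 ± 3.96 CPM in wild-type mice (log2 fold change 0.019 ± 0.24, adjusted p = 0.953). Thus 4 of the 5 genes of this family other than the receptors rose and 0 fell, with a median of 0.92.

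Of 8 genes for SRF and its partners, 6 rose in sick against wild-type mice. Myocd, which encodes the smooth muscle coactivator myocardin, averaged 2.85 ± 2.04 CPM in sick mice, against 0.395 ± 0.176 CPM in wild-type mice (log2 fold change 2.88 ± 0.66, edgeR adjusted p = 0.00282). Mrtfa and Mrtfb, its relatives that respond to actin assembly, rose by 1.30 ± 0.15 and 0.97 ± 0.28 on the log2 scale, and Fhl2, Elk3 and Elk1 by 1.41, 1.01 and 0.63. Srf itself had a log2 fold change of 0.15 ± 0.19 (edgeR adjusted p = 0.521), or 0.76 (adjusted p = 0.00589) without TMM, and Foxo4 one of 0.08. In sick against healthy knock-in mice 4 of the 8 rose and 0 fell. Mrtfb and Elk1 did not pass there (edgeR adjusted p = 0.106 and 0.0807).

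Of 19 further genes of the smooth muscle contractile apparatus 14 rose and 1 fell in sick against wild-type mice, with a median of 1.30. The 3 with the highest levels did not move alike. Mylk, the myosin light chain kinase gene, rose by 0.74 ± 0.26 on the log2 scale (edgeR adjusted p = 0.0297), Myl6 had a log2 fold change of -0.24 ± 0.25 (adjusted p = 0.461), and Fhl1, a LIM protein gene of muscle, fell by 1.52 (adjusted p = 0.000224). In sick against healthy knock-in mice 11 of the 19 rose and 1 fell, and Mylk had a value of 0.20 (edgeR adjusted p = 0.545). Actg2, the actin of visceral smooth muscle, was named after its values were seen: it ranged from 4.07 to 20.5 CPM in sick mice, 0.057 to 1.77 CPM in healthy knock-in ones and 0.173 to 0.405 CPM in wild-type mice (5.06 ± 0.90 on the log2 scale against wild-type, edgeR adjusted p = 0.000524).

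Of 16 Notch pathway genes other than Notch3, 7 rose and 1 fell in sick against wild-type mice, with a median of 0.62. Without TMM 13 rose and 0 fell, with a median of 1.22, where the median of all genes was 0.61. Jag1, a ligand that mural cells and endothelium present to Notch3, rose by 0.93 ± 0.25 on the log2 scale (edgeR adjusted p = 0.00727), and Heyl, a Notch3 target of smooth muscle, rose by 1.20 ± 0.21 (adjusted p = 0.000405). Lfng, a glycosyltransferase that modifies Notch receptors, rose by 1.66, Jag2 by 1.13, Maml2 by 0.86, Notch1 by 0.73 and Rbpj, the DNA-binding partner of Notch, by 0.70. Dll4, the ligand of endothelial cells, fell to 7.89 ± 1.85 CPM in sick mice, against 15.8 ± 2.76 CPM in wild-type mice (edgeR adjusted p = 0.00111), but without TMM its log2 fold change was -0.39 (adjusted p = 0.12). Notch2 and Notch4 had log2 fold changes of 0.54 and 0.23 (adjusted p = 0.0562 and 0.32), and the target Hes1 one of 0.21.

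Other pericyte genes did not all follow Rgs5. Of 15 tested, 9 rose and 1 fell, with a median of 1.18. Gucy1a1, a subunit of the nitric oxide receptor, rose by 1.80 ± 0.33 and Mcam, an adhesion molecule gene, by 1.47 ± 0.22 on the log2 scale (edgeR adjusted p = 0.000624 and 0.000169), while Angpt1, which signals to endothelium, averaged 14.6 ± 1.16 CPM in sick mice, against 20.7 ± 4.92 CPM in wild-type mice (adjusted p = 0.11). Kcnj8, a potassium channel gene of pericytes named after its values were seen, fell by 1.14 on the log2 scale, but its value without TMM was -0.53 (adjusted p = 0.13). In the mesangial list 8 of 11 genes other than Itga8 and Pdgfrb rose and 0 fell, with a median of 1.34. Itgb1, the partner chain of Itga8, rose by 0.89 ± 0.15 (adjusted p = 0.000295), whereas Igfbp5 averaged 299 ± 134 CPM in sick mice, against 551 ± 155 CPM in wild-type mice (adjusted p = 0.0608). Npnt, which encodes the Itga8 ligand nephronectin and was named after its values were seen, averaged 177 ± 28.8 CPM in sick mice, against 156 ± 22.8 CPM in wild-type mice (edgeR adjusted p = 0.613).

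**Figure D4:**
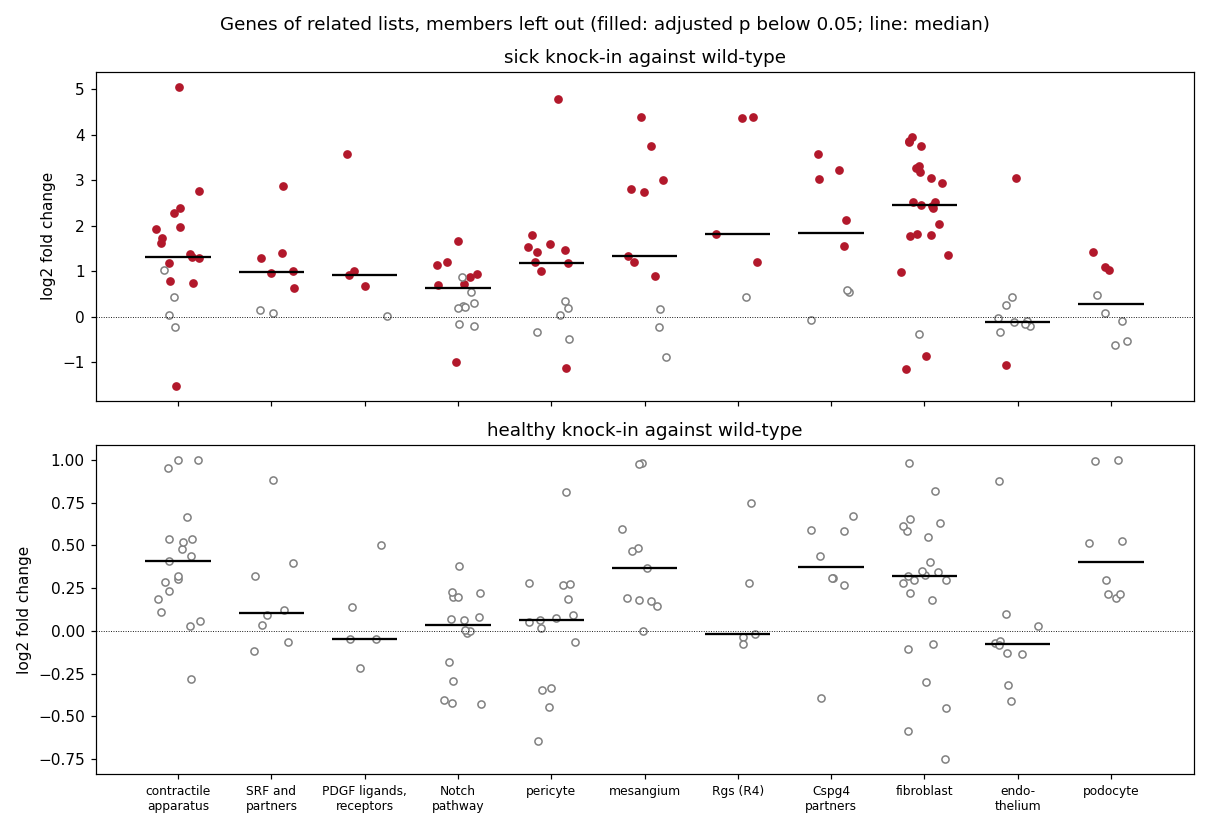
Log2 fold change of the genes of 11 related lists, with the 10 genes themselves left out, in sick against wild-type mice (upper panel) and healthy knock-in against wild-type mice (lower panel, with its own axis). Each point is a gene, filled where the edgeR adjusted p was below 0.05, and each line is the list's median: 1.30 for contractile, 2.45 for fibroblast and -0.11 for endothelial genes in the upper panel, and 0 filled points in the lower one.

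Smaller lists belong to single genes. Of 5 tested relatives of Rgs5 in the R4 family, 4 rose; Rgs2 rose by 1.83 ± 0.31 and Rgs4 by 1.21 ± 0.21 on the log2 scale, and Rgs3 had a value of 0.43 (edgeR adjusted p = 0.0636). Of 8 partners and relatives of Cspg4, 5 rose, among them the collagen VI genes that its protein binds, Col6a1 by 3.24 ± 0.35, Col6a2 by 3.03 ± 0.35 and Col6a3 by 1.56 ± 0.29 (edgeR adjusted p = 1.53e-05, 2.22e-05 and 0.000648). Between healthy knock-in and wild-type mice 0 genes of the growth factor, contractile, SRF, Notch, pericyte, mesangial, Rgs and Cspg4 lists passed the test.

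Markers of neighbouring cell types gave the setting of these values. Of 23 fibroblast and myofibroblast genes 20 rose and 2 fell in sick against wild-type mice, with a median of 2.45, and without TMM 20 rose and 0 fell. Their summed level was 4927 to 8990 CPM in sick, 993 to 2092 CPM in the healthy knock-in group and 964 to 1483 CPM in wild-type mice, and Col1a2 and Col3a1, which encode collagen chains, rose by 3.31 ± 0.38 and 3.28 ± 0.46 on the log2 scale, and the matrix gene Sparc by 1.79. Endothelial markers, the cells that mural cells cover, did not move in this way: 1 of 10 rose and 1 fell, and their sum was 702 to 837 CPM in sick, 638 to 780 CPM in the healthy knock-in group and 656 to 845 CPM in wild-type mice. Without TMM 6 of the 10 rose and 0 fell, where 54% of all genes rose. Kdr, a receptor gene of capillary endothelium, fell to 51.9 ± 5.18 CPM in sick mice, against 108 ± 33.3 CPM in wild-type mice, and Vwf, singled out after its values were seen, rose by 3.06 ± 0.42 (edgeR adjusted p = 0.00106 and 8.3e-05). The fall of Kdr did not pass without TMM (-0.47, adjusted p = 0.0756). Eng and Plvap, also endothelial, had values of 0.43 and -0.16 on the log2 scale (adjusted p = 0.0639 and 0.521). Of 8 podocyte genes 3 rose and 0 fell, or 5 and 0 without TMM: Synpo rose by 1.08, while Podxl had a value of -0.09 (adjusted p = 0.736).

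Macrophage markers summed to 890.0 to 1733 CPM in sick, 189 to 256 CPM in the healthy knock-in group and 127 to 243 CPM in wild-type mice, and 8 of 9 rose in sick against wild-type mice, with Lyz2 by 3.74, Ctss by 3.65 and Csf1r by 1.04 on the log2 scale. Proximal tubule markers summed to 3035 to 6871 CPM in sick, 20102 to 25187 CPM in the healthy knock-in group and 21689 to 24911 CPM in wild-type mice, and all 10 fell, with log2 fold changes of -2.89 for Slc34a1 and -2.77 for Lrp2. The part of these shifts in the CPM values of the 10 genes was not tested.

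**Figure D5:**
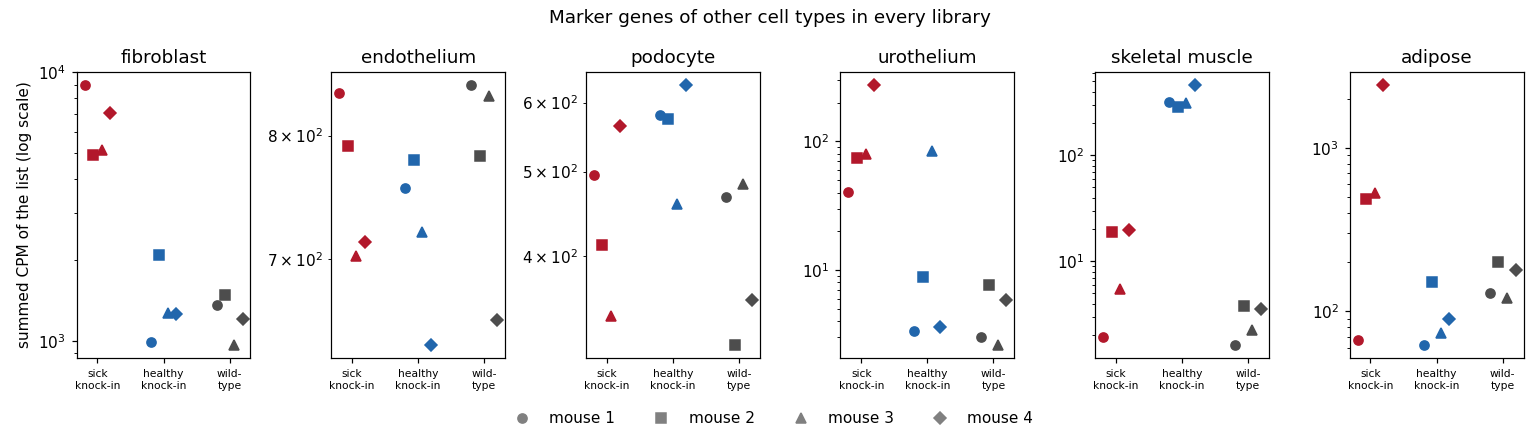
Summed CPM of marker genes of 6 other cell types in every library, on log axes with a range of their own in each panel, with sick knock-in mice on the left, healthy knock-in mice in the middle and wild-type mice on the right. Fibroblast sums are 4927 to 8990 CPM in sick mice against 964 to 1483 CPM in wild-type mice, endothelial sums overlap, urothelial and adipose sums peak in sick mouse 4, and skeletal muscle sums are high in the 4 healthy knock-in mice.

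The authors' deposited table gives log2 fold changes and adjusted p values of its own for the same 3 comparisons. There, 7 of the 10 genes in the authors' deposited table have an adjusted p below 0.05 for sick over wild-type mice. The authors' deposited table has 5 for sick over healthy knock-in and 0 for healthy knock-in over wild-type mice. The share of all genes below 0.05 in the authors' deposited table was not counted, so these counts stand without a background. For sick over wild-type the authors' deposited table lists 2.49 for Tagln, 2.42 for Acta2, 2.17 for Pdgfra and 0.61 for Itga8. Des, Cspg4 and Itga8 have adjusted p values of 0.0505, 0.088 and 1 in the authors' deposited table, which leaves Des and Cspg4 on the other side of the threshold from the edgeR test in this comparison. For sick over healthy knock-in the authors' deposited table lists Myh11, Notch3, Des and Cspg4 at adjusted p values of 0.135, 0.149, 0.374 and 0.603. Each of these genes passed the edgeR test of sick against healthy knock-in mice.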

How the data were processed

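Kidney RNA of 12 mice, 4 per group, was isolated (miRvana), freed of DNA by DNase and sequenced as Trueseq libraries, per the labels' protocols. The authors deposited whole-number counts per Ensembl gene, which are not normalized. Trim Galore 0.3.7, TopHat2 2.0.11, Cufflinks, DESeq2 1.12.4 and GRCm38 are named in the submitters' processing notes; the counting program, the annotation and the use of strand stand in no source used here. Log2 fold changes and adjusted p-values of the authors' own comparisons were copied from the deposited table. The 12 normalised columns were not used. Of its rows, 18439 have no symbol.

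Counts were analysed in R 4.3.3 with edgeR 4.0.16. Genes were kept by filterByExpr, libraries scaled by TMM, and the model held 1 mean for each group over all 12 libraries and no covariates. Quasi-likelihood F tests were adjusted by Benjamini-Hochberg over 15589 genes at 0.05; the SE is the log2 fold change over the root of F. The biological coefficient of variation was 0.27. Depth limits precision through the total count of each library, and p-values measure the spread between these mice. Log2 CPM for correlations used a prior count of 2. Alternatives used DESeq2 1.42.0 and limma 3.58.1. Positions and exon lengths are from GENCODE on GRCm38, and promoter sequences from RefSeq on GRCm38.p6. The analysis scripts were tested on simulated data.

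The 10 genes and all lists were chosen with earlier results of these data known. Named genes are the 10, every tested gene of the growth factor, Notch and SRF lists, the 3 genes of highest mean CPM of each other list, and the 3 nearest genes of 6 of the 10. Some genes that this rule names are not reported here. Correlations of same-numbered mice across groups were mixed (-0.26 to 0.24). Mice 1 and 4 correlated best with their own number in both comparisons with wild-type mice, at 0.17 to 0.24. In sick against healthy knock-in mice no mouse did. The labels name no batch, and the numbers were not used as pairs.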

Additional observations from a re-analysis of the deposited data

Results flagged for a closer look

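In 3 of the 30 combinations of gene and group, 1 mouse lay farther from the other 3 than Dixon's 95% limit allows; about 1.5 of 30 would by chance. Rgs5 was 136 CPM in sick mouse 3, where the other sick mice had 247 to 261 CPM. Des was 34.4 CPM in wild-type mouse 2, where the other wild-type mice had 13.9 to 17.2 CPM. Pdgfra was 26.1 CPM in wild-type mouse 2, where the others had 32.9 to 34.3 CPM. Without wild-type mouse 2 the log2 fold changes in sick against wild-type mice were 1.62 for Des and 2.16 for Pdgfra, and without sick mouse 3 that of Rgs5 was 2.32, with all 3 genes still past the edgeR threshold.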

How the results depend on the processing

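In sick against wild-type mice the 10 log2 fold changes kept their direction and side of the threshold in 79 of 80 fits without 1 mouse and 108 of 110 other fits, and in sick against healthy knock-in mice in 77 of 80 and 108 of 110. The exceptions were Itga8, which passed without sick mouse 3, without TMM, by upper-quartile scaling against wild-type (0.79, adjusted p = 0.0433) and by limma-voom against healthy knock-in mice (0.64, adjusted p = 0.0322), and Myh11, lost against healthy knock-in mice without sick mouse 4 or healthy knock-in mouse 1. In healthy knock-in against wild-type mice limma-voom called 1 gene where edgeR called 0. Signs there turned for Itga8 at -0.16 and Cspg4 at -0.029 by limma-voom, and, with sick mouse 4 and healthy knock-in mouse 3 left out, an alternative added after the data were seen, for Acta2 at -0.0094, Myh11 at -0.097 and Itga8 at -0.041. Leaving out 1 mouse gave -0.0095 to 0.69 for Acta2, -0.097 to 0.57 for Myh11 and -0.17 to 0.20 for Itga8. The cause was not tested. Replicate numbers as a block, not used in the main fit, left 9, 9 and 0 genes called. That fit put Itga8 in healthy knock-in against wild-type mice at -0.00031, and its share of all genes called was not recorded. Without TMM the count of genes that rose in sick against wild-type mice was 13 where TMM gave 7 for the Notch list, 6 where it gave 1 for the endothelial list and 5 where it gave 3 for the podocyte list.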
